A study of Homo sapiens with 12 samples.

Results

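Metallothioneins are small, cysteine-rich proteins that bind zinc and copper, and zinc transporters carry the metal across the membranes of the cell. The genes described here are 10 of the 60656 in the count table: the metallothioneins MT2A, MT1X, MT1E, MT1F, MT1G, MT1M and MT3, the metal-sensing transcription factor MTF1, the zinc exporter SLC30A1 and the zinc importer SLC39A10. They were chosen by name for their role in metal handling, and all 10 were found through their Ensembl identifiers. RNA was sequenced from 3 human lines of metastatic melanoma (SKMEL-5, A375 and A2058), each cultured in normoxia (atmospheric oxygen) or in hypoxia (1% oxygen). Each line and condition had 2 libraries, described as biological duplicates, which gave 12 libraries in 6 groups. The labels name no drug, metal or genetic change, and no length of the hypoxic culture.

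Free zinc inside a cell is held low, and metallothioneins act as its buffer. When zinc or cadmium rises, MTF1 binds metal response elements in promoters and switches on metallothionein genes and SLC30A1, whose product pumps zinc out of the cell. Metallothionein transcription also answers to glucocorticoids, oxidants and, in many tissues, low oxygen, while members of the SLC39 family bring zinc into the cytoplasm.

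The 7 metallothioneins lie on chromosome 16 of GRCh38, within a cluster of 16 metallothionein genes and copies that GENCODE 29 places between 56565049 and 56684196, a span of 119.1 kb. MT2A (ENSG00000125148.7) occupies 56608199 to 56609497 on the plus strand and MT1X (ENSG00000187193.9) occupies 56682424 to 56684196 on the plus strand. MTF1 (ENSG00000188786.10) lies on the minus strand of chromosome 1 at 37809567 to 37859620. SLC30A1 (ENSG00000170385.10) lies on the minus strand of chromosome 1 at 211571568 to 211578742, and SLC39A10 (ENSG00000196950.14) on the plus strand of chromosome 2 at 195575977 to 195737702.

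The DNA before the start sites is shown because MTF1 acts through it, and because it can be set beside how much RNA each gene gave. The metal response core was searched as TGCACNC or TGCGCNC on both strands in the 250 bases before each RefSeq start on GRCh38.p14, and each match is in capitals. RefSeq promoter windows were found for 5 of the 10 genes. The first 3 sequences are stretches of 30 bases from the MT2A window (16:56608412-56608441, 16:56608485-56608514 and 16:56608519-56608548), since GENCODE 29 counts all 250 bases of that window as exon. They hold the matches 168, 153, 88 and 54 bases before the start. The matches at 246, 139 and 8 bases are not shown, and far, middle and near order only the 3 stretches. The MT1X stretch (16:56682220-56682423) stops where its GENCODE exon begins. The SLC30A1 window (1:211579162-211579411, minus strand) and that of MT1H, a metallothionein outside the 10 genes (16:56669564-56669813), are given whole, 5′ to 3′.
MT2A, far stretch: gcccGTGTGCAgagccgggTGCGCCCggcc
MT2A, middle stretch: cagcgcggggcGTGTGCAggcagcgcccgg
MT2A, near stretch: ggcggggctttTGCACTCgtcccggctctt
MT1X: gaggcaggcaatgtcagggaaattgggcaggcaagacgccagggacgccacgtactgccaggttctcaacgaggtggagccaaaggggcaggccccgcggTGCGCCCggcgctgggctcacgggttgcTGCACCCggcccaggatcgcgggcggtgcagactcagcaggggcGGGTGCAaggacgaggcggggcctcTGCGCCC
SLC30A1: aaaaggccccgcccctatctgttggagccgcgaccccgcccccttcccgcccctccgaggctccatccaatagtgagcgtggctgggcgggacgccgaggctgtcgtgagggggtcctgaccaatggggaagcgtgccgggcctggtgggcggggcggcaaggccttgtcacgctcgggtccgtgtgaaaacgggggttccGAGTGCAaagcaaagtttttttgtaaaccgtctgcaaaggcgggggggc
MT1H: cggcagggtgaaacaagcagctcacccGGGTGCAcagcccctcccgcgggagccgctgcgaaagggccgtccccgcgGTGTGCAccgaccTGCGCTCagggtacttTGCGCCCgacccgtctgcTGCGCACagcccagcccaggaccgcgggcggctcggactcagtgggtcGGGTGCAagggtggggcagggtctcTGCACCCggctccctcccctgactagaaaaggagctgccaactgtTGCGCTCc

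The MT2A window held 7 matches to the metal response core, MT1X held 4 and SLC30A1 held 1. MTF1 held 0, as did both windows of SLC39A10. The SLC30A1 window lies upstream of the GENCODE 29 start of that gene (211578742), and the DNA between them was not searched. Both SLC39A10 windows lie inside its GENCODE span, and the DNA before its GENCODE start was not searched. Of all 35116 promoter windows of that length, 24.8% held at least 1 match, 1.58% at least 3 and 0.37% at least 4. MT1H held 8 matches and had 1 count in all 12 libraries, and MT1B and MT4 held 3 each and had 0 counts. The number of matches and the amount of RNA therefore did not follow the same order among these metallothioneins. A core motif of the hypoxia response, ACGTG or GCGTG, was found once in the MT2A window (overlapping a metal response core), once in MT1X, 3 times in SLC30A1, 2 times in MTF1 and once in each of the 2 SLC39A10 windows, and 43.2% of all windows held at least 1. These are matches of letters and not measured binding sites.

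**Figure D1:**
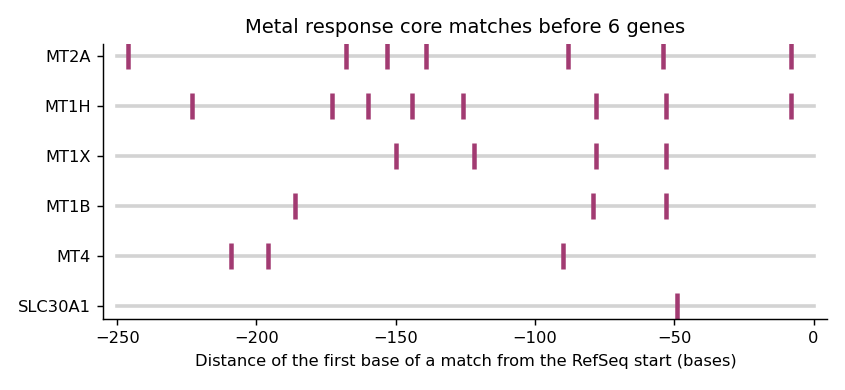
Position of each metal response core match (vertical marks) in the 250 bases before the RefSeq start, for 6 genes; the horizontal axis is the distance of the match's first base from the start. MT2A has 7 matches and MT1H 8, spread along the window, whereas the single match of SLC30A1 lies 49 bases before the start.

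Library totals ran from 33831569 to 54202819 counts, and levels below are CPM, counts scaled to a common library size with TMM factors, unless another unit is named. Within lines, 1 hypoxic library of each line stood apart from the rest (hypoxia 1 of SKMEL-5 and of A375, hypoxia 2 of A2058): their scores on the first principal component, which carried 47.05% of the variance, were 108.4, 131.9 and 72.75, and the other 9 were below 0. The normoxic replicates also differed: CA9, a gene that hypoxia induces, was higher in replicate 1 than in replicate 2 by 5.20 on the log2 scale in SKMEL-5, 7.21 in A2058 and 2.54 in A375. A375 and SKMEL-5 were much alike: correlations between their libraries (log2 CPM) ran from 0.9119 to 0.9899, and 2 of 19636 genes differed between them in edgeR's quasi-likelihood test. They were as alike as libraries within a line (0.9171 to 0.9821 in A375 and 0.9281 to 0.9781 in SKMEL-5), so whether these 2 labels stand for separate lines was not tested, and the 2 comparisons of A2058 with them, which also share the A2058 libraries, do not count as 2 independent results. Summed over 8 melanocytic markers, the level ran from 2584 to 8009 CPM in A2058, from 867 to 1364 CPM in A375 and from 926 to 1570 CPM in SKMEL-5. In A375 and SKMEL-5 the pigment genes TYR and MLANA had 0 counts in all 8 libraries, while SOX10, a lineage transcription factor, ran from 765.1 to 1265 CPM. MITF, another of the melanocytic markers, did not overlap between these 2 labels. It ran from 17.2 to 28.3 CPM in A375 and from 91.3 to 173.2 CPM in SKMEL-5, and was not called. A2058 normoxia 1 had 20.1% of its counts from the mitochondrial genome, against 0.648% to 7.64% in the other 11 libraries. Summed fibroblast markers ran from 9.27 to 26.7 CPM in normoxia and from 13.6 to 106 CPM in hypoxia, the highest in A2058. Among them PDGFRB went the other way, at 0.69 to 2.24 CPM in A2058 and 5.47 to 12.6 CPM in the other lines. Summed keratinocyte markers, mostly KRT10, ran from 43.3 to 103 and from 51.7 to 144 CPM. Blood cell markers, mostly LYZ, ran from 0.551 to 10.3 and from 1.31 to 15.3 CPM. The part of these differences in the results below was not tested, and in bulk RNA fewer cells of a type and less RNA per cell cannot be told apart.

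Nearly all metallothionein RNA came from MT2A, the most widely expressed human metallothionein gene. Over 12 libraries, 247842 of 250051 metallothionein counts (99.12%) were MT2A and 2181 (0.872%) were MT1X. The other 10 genes of the 12-gene family shared 28 counts, 8 of them from MT1A. MT1E and MT1M had 0 counts in every library, which allows up to 3 counts or 0.0506 to 0.0902 CPM depending on the library, for counting error only. MT1F had 5 counts in 3 libraries, MT1G had 2 counts in 2 libraries, and MT3, the brain-enriched growth inhibitory factor, had 12 counts in 5 libraries with at most 7 in one (A2058 hypoxia 2). These 5 genes were too low to test, so the tests below concern 5 of the 10 genes (MT2A, MT1X, MTF1, SLC30A1 and SLC39A10).

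**Figure D2:**
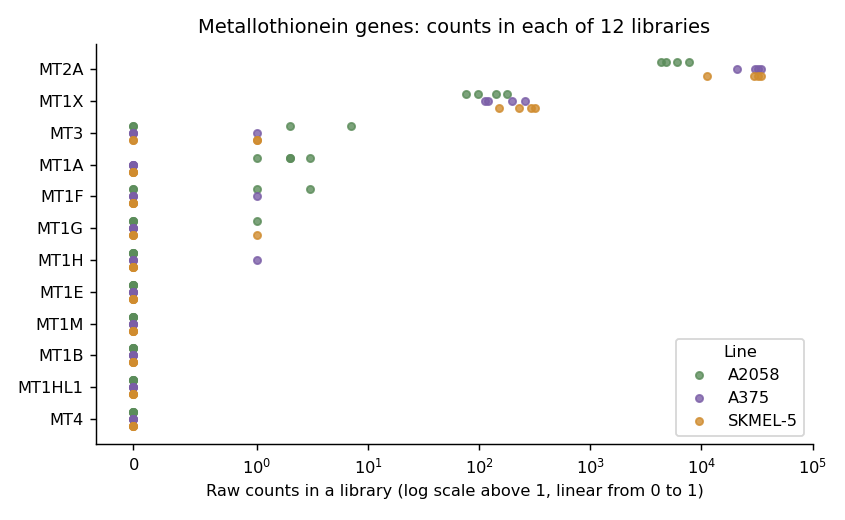
Raw counts of the 12 metallothionein genes in each library; each point is a library, coloured by line, on an axis that is linear from 0 to 1 and logarithmic above. MT2A and MT1X had counts in all 12 libraries, no other gene had more than 7 in any, and 5 genes sat at 0 throughout.

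Close copies could have shared reads, since the counting rule is not given in the sources used here. At 50 bases, 3.02% of windows in MT2A transcripts and 18.3% in MT1X transcripts also occurred in transcripts of another gene, and at 75 bases 0% and 14.3% did. The windows of a gene pool all its annotated transcripts. The share within a single, shorter transcript can be higher and was not computed, here or for the genes below. Most of the MT1X overlap was with ENSG00000259827, a same-strand transcript that had 0 counts. For the 5 genes with 0 counts the shared part at 50 bases was 7.10% of windows for MT1E, 9.87% for MT1M, 19% for MT1B, 22.5% for MT1HL1 and 0% for MT4. It was 1.22% for MT1F, 16.5% for MT1G and 0% for MT3. The MT2A pseudogene MT2P1 had 209 counts in 11 libraries, and its reads and those of MT2A cannot be told apart with certainty.

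Compared per kb of merged exons, MT2A had the highest median of the tested genes of this pathway, with no clear lead in A2058 on this measure. For MT2A and MT1X the merged exons (1299 and 1773 bases) cover the whole span of the gene. Their levels per kb are therefore too low for any shorter transcript. The MT2A median over 12 libraries was 448.2 CPM per kb (range 96.7 to 560.5). The importer SLC39A7, which releases zinc from the endoplasmic reticulum, had a median of 49.8 CPM per kb (28.5 to 128.1) and SLC39A6, a plasma membrane importer, had 28.97 (16.8 to 114.4). In hypoxic A2058 the mean levels per kb were 110.6 ± 19.6 (SD, n = 2) for MT2A, 108.7 ± 27.4 for SLC39A7 and 94.3 ± 28.4 for SLC39A6. At these exon lengths they did not differ beyond their spread. SLC30A1 had a median of 6.09 CPM per kb (1.84 to 28.6), MTF1 3.72 (1.43 to 6.19), SLC39A10 3.65 (1.80 to 8.70) and MT1X 2.14 (1.08 to 4.39). The ranges of these last 4 genes over the libraries overlapped, and their order within each library was not tested.

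MT2A was at a similar level in both oxygen conditions in A2058 and A375, and was 4.62-fold lower in A2058 than in A375. In A2058 MT2A read 153.4 and 132.8 CPM in normoxia and 161.6 and 125.6 CPM in hypoxia. In A375 it read 584.2 and 713.1 CPM in normoxia and 621.3 and 728.0 CPM in hypoxia. In SKMEL-5 it read 660.9 and 698.0 CPM in normoxia and 268.6 and 580.2 CPM in hypoxia. The hypoxic and normoxic values overlapped in A2058 and A375, while in SKMEL-5 both hypoxic libraries were below both normoxic ones, as were those of 19.7% of tested genes. The lowest SKMEL-5 value belonged to hypoxia 1, the library that stood apart.

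Tested with edgeR's quasi-likelihood test, the hypoxia change of MT2A averaged over the 3 lines was -0.21 ± 0.23 (SE) on the log2 scale, with a 95% interval of -0.72 to 0.31 and an adjusted p of 0.6541. The interval holds both falls and rises. By line the log2 change was -0.68 ± 0.40 in SKMEL-5 (edgeR adjusted p = 0.7312), 0.06 ± 0.40 in A375 and 0.01 ± 0.40 in A2058. Without SKMEL-5 hypoxia 1 the SKMEL-5 value was -0.22, and without all 3 libraries that stood apart the 3-line mean was 0.02. In each of those 3 libraries MT2A was lower than in the other hypoxic library of its line, by a log2 difference of -1.11 in SKMEL-5, -0.36 in A2058 and -0.23 in A375, a direction shared by 29.9% of tested genes.

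The difference between lines was the firmest result for MT2A. All 4 A2058 libraries, at 125.6 to 161.6 CPM, lay below all 8 libraries of the other lines, as did those of 11.9% of tested genes. Averaged over both oxygen conditions, MT2A was 4.62-fold lower in A2058 than in A375 (95% interval 2.93 to 7.26, log2 difference -2.21 ± 0.30, edgeR adjusted p = 0.0002865). It was 3.75-fold lower in A2058 than in SKMEL-5 (2.39 to 5.87, log2 difference -1.91 ± 0.29, edgeR adjusted p = 0.0007176). MT2A was the only one of the 5 tested genes called in either comparison, where 27.6% and 26.8% of all tested genes were called (14.2% and 13.9% as lower in A2058). It stayed called in all 19 alternative fits of each comparison, with adjusted p up to 0.002392 and 0.005297. Between A375 and SKMEL-5 the log2 difference was 0.30 ± 0.28 and 0 of the 5 genes were called, against 0.0102% of all genes.

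MT1X, the second metallothionein with measurable RNA, did not follow MT2A. In A2058 it read 4.59 and 2.70 CPM in normoxia and 2.99 and 2.18 CPM in hypoxia. In A375 it read 1.92 and 2.82 CPM in normoxia and 7.79 and 4.50 CPM in hypoxia. In SKMEL-5 it read 6.61 and 3.08 CPM in normoxia and 5.44 and 5.77 CPM in hypoxia. Only in A375 were the conditions apart among these groups, with both hypoxic libraries above both normoxic ones, as for 18.1% of tested genes. The log2 change in A375 was 1.37 ± 0.56, with an unadjusted p of 0.03233 and an adjusted p of 0.8396 in edgeR, so it was not called. It was 0.88 without A375 hypoxia 1.

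In A2058 the log2 change of MT1X was -0.49 ± 0.55 and in SKMEL-5 0.21 ± 0.55, and the mean over 3 lines was 0.36 ± 0.32 (95% interval -0.34 to 1.06, edgeR adjusted p = 0.5517). An F test of whether the change differed between lines gave an unadjusted p of 0.09938 for MT1X, the lowest of the 5 genes, and an adjusted p of 1.0. As a share of metallothionein counts MT1X made up 0.361% ± 0.046 (SD, n = 2) in normoxic A375 and 0.926% ± 0.441 in hypoxic A375. In A2058 the shares were 2.45% ± 0.65 and 1.76% ± 0.08, and in SKMEL-5 0.714% ± 0.390 and 1.48% ± 0.71. The larger share in A2058 went with its lower MT2A level. The log2 difference of MT1X in A2058 was -0.31 ± 0.39 from A375 (95% interval -1.17 to 0.55, edgeR adjusted p = 0.5955). From SKMEL-5 it was -0.76 ± 0.39 (-1.62 to 0.10, edgeR adjusted p = 0.1826). MT1X was called in neither comparison, and these intervals leave room for lower levels in A2058. Across the 12 libraries, centred on each line's mean, log2 CPM of MT1X and MT2A had a Pearson r of -0.0047, which describes libraries that share depth and replicate effects.

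**Figure D3:**
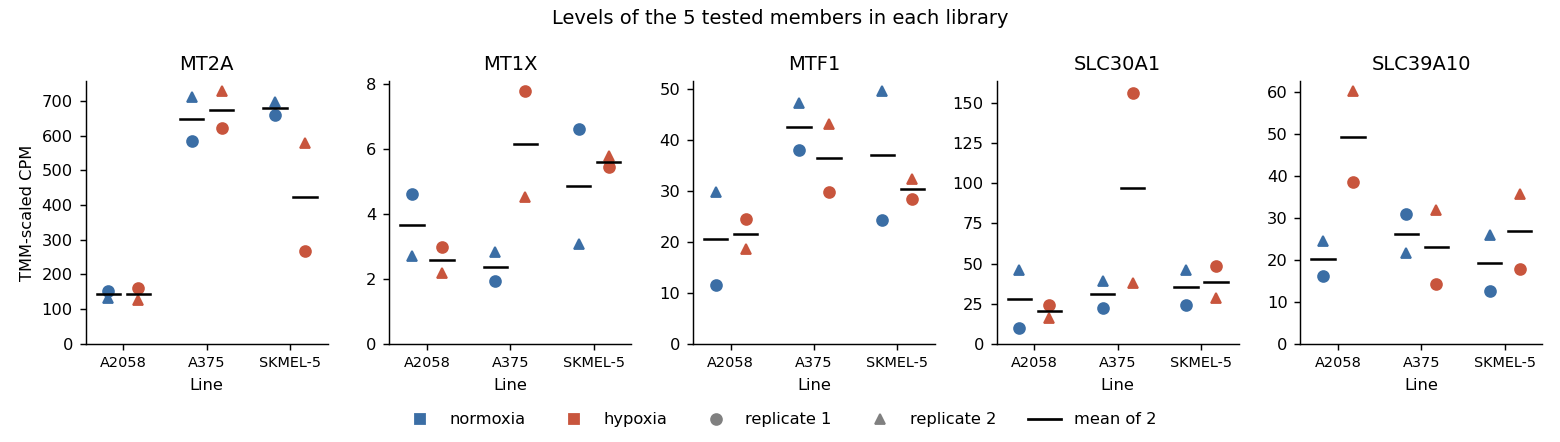
TMM-scaled CPM (vertical axis, from 0, a separate scale for each gene) of the 5 tested genes by line and oxygen condition; circles are replicate 1, triangles replicate 2, and bars the mean of 2. MT2A is low in all 4 A2058 libraries, and SLC30A1 has 1 high library, at 156.5 CPM in hypoxic A375.

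MTF1, whose protein senses zinc, was spread as widely between replicates as between conditions. It read 11.5 and 29.8 CPM in normoxic A2058 and 24.4 and 18.6 CPM in hypoxic A2058. It read 38.0 and 47.3 CPM in normoxic A375, 29.9 and 43.1 CPM in hypoxic A375, 24.3 and 49.7 CPM in normoxic SKMEL-5 and 28.4 and 32.4 CPM in hypoxic SKMEL-5. The conditions overlapped in each line, and the 3-line mean change was -0.15 ± 0.28 on the log2 scale (-0.76 to 0.47, edgeR adjusted p = 0.8117). All 4 A2058 libraries lay at or below 29.8 CPM, just under the lowest A375 library at 29.9 CPM. The share of all tested genes with these 2 lines apart was not computed. The log2 difference of A2058 from A375 was -0.90 ± 0.35 with an adjusted p of 0.07465 in edgeR, short of the threshold that 27.6% of all tested genes passed. It was called in 3 of 19 alternative fits (adjusted p 0.01979 to 0.2199).

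SLC30A1, the plasma membrane zinc exporter and a standard target of MTF1, had the largest replicate differences of the tested genes. They were 2.19 on the log2 scale in normoxic A2058 and 2.04 in hypoxic A375. In hypoxic A2058 and in both conditions of SKMEL-5, other tested genes differed more between replicates. In A2058 it read 10.1 and 46.3 CPM in normoxia and 24.3 and 16.2 CPM in hypoxia. In A375 it read 22.5 and 39.3 CPM in normoxia and 156.5 and 38.1 CPM in hypoxia. In SKMEL-5 it read 24.3 and 46.1 CPM in normoxia and 48.6 and 28.6 CPM in hypoxia. The conditions overlapped in every line, and normoxic replicate 2 was above replicate 1 in each, by 4.58-fold, 1.75-fold and 1.89-fold. The lowest value, like the lowest of MTF1, came from A2058 normoxia 1, the library with 20.1% mitochondrial counts, whose part in it was not tested.

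The 3-line mean change of SLC30A1 was 0.44 ± 0.43 on the log2 scale (-0.51 to 1.39, edgeR adjusted p = 0.6041). In A375 it was 1.66 ± 0.77 (edgeR adjusted p = 0.8396), a value that rested on hypoxia 1: without that library it was 0.26, and the 3-line mean was then -0.01. MT2A, with 7 matches to the metal core in its window, read 621.3 CPM in that library, against 728.0 CPM in the other hypoxic A375 library. MT1X, with 4 matches, had its highest level of the 12 libraries there (7.79 CPM, against 4.50 CPM in the other). Whether metal had a part in these values was not tested. Across the 12 line-centred libraries SLC30A1 and MT2A had a Pearson r of -0.20. A2058 and A375 differed in SLC30A1 by -1.20 ± 0.54 on the log2 scale with an edgeR adjusted p of 0.1223, which was not called.

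SLC39A10, which brings zinc in through the plasma membrane, was highest in hypoxic A2058. It read 16.1 and 24.5 CPM in normoxic A2058 and 38.5 and 60.2 CPM in hypoxic A2058, with no overlap, as for 20.5% of tested genes. It read 31.0 and 21.5 CPM in normoxic A375 and 14.2 and 31.9 CPM in hypoxic A375. In SKMEL-5 it read 12.5 and 25.9 CPM in normoxia and 17.8 and 35.8 CPM in hypoxia. The conditions overlapped in A375 and SKMEL-5, where hypoxia 2 was the higher of the 2 hypoxic libraries, by 2.24-fold in A375.

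The log2 change of SLC39A10 in A2058 was 1.28 ± 0.54 (0.09 to 2.47), with an unadjusted p of 0.03696 and an adjusted p of 0.5046 in edgeR. It was 0.93 without A2058 hypoxia 2. In A375 the change was -0.19 ± 0.53 and in SKMEL-5 0.48 ± 0.53, and the 3-line mean was 0.53 ± 0.31 (-0.15 to 1.20, edgeR adjusted p = 0.3684). The F test of a difference between lines gave an unadjusted p of 0.1961. Across 12 line-centred libraries SLC39A10 and MT1X had a Pearson r of -0.60.

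Across the hypoxia comparisons, 0 of the 5 tested genes were called in the 3-line mean by edgeR's quasi-likelihood test, DESeq2 or limma-voom, where 1.12%, 8.7% and 0.906% of all genes were called. None of the 5 had an unadjusted p under 0.05 there in edgeR. Within lines 0 of 5 were called, against 0.0102% of all genes in A2058 and 0% in each of the other lines, so a single line gave nearly no calls for any gene. At an unadjusted p under 0.05 edgeR gave 1 of the 5 in A2058 (SLC39A10), 1 in A375 (MT1X) and 0 in SKMEL-5, where 1798, 1100 and 1283 of all 19636 genes passed that level. The test of a difference between lines called 0 of 19636 genes. The alternative fits with edgeR, DESeq2 or limma-voom gave 390 values, each for 1 gene in 1 of these hypoxia comparisons. The lowest adjusted p among them was 0.0728.

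**Figure D4:**
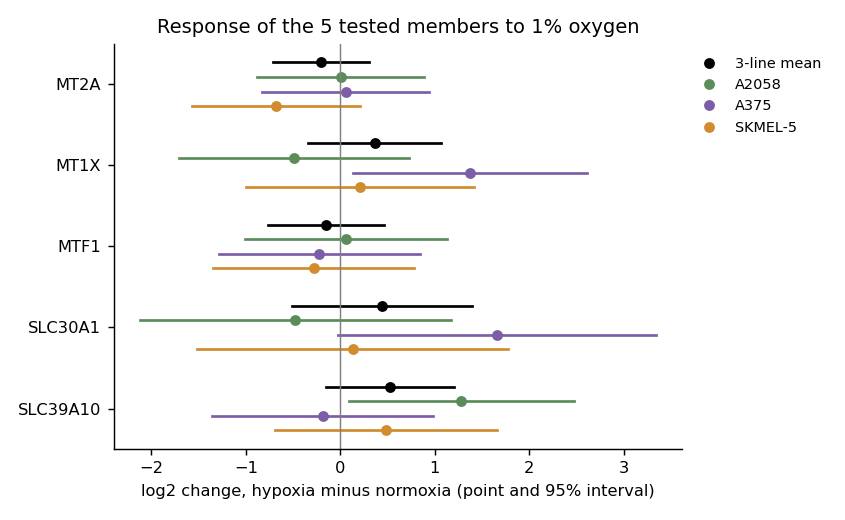
Log2 change from normoxia to hypoxia for the 5 tested genes, with 95% intervals from edgeR; black is the mean over 3 lines and colours are single lines. The 3-line intervals all include 0, and the single-line intervals that leave it out are MT1X in A375 (1.37) and SLC39A10 in A2058 (1.28).

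Genes that low oxygen is known to induce did respond in the same libraries. Of 9 such genes 7 rose in the 3-line mean, against 0.978% of all genes, with a median log2 change of 2.87 against 0.017 for all tested genes. NDRG1, a stress-induced gene, rose by 4.13 ± 0.56 (edgeR adjusted p = 0.01097), and CA9, a carbonic anhydrase, by 6.77 ± 1.18 (adjusted p = 0.02572). ADM, the vasodilator adrenomedullin, and ANGPTL4, an inhibitor of lipoprotein lipase, rose by 3.55 ± 0.49 and 3.61 ± 0.50 (edgeR adjusted p = 0.01131 for each). The count was 4 of 9 when SKMEL-5 was left out of the mean, 1 when A375 was left out, and 2 without the 3 libraries that stood apart (ADM and ANGPTL4). ADM was called in 16 and ANGPTL4 in 17 of 21 alternative fits (adjusted p up to 0.06396 and 0.06485). NDRG1 reached 3.16 with an adjusted p of 0.09026 without the 3 libraries that stood apart, and was called in 15 of 21 alternative fits (adjusted p 8.246e-43 to 0.09026).

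Other routes to metallothionein expression were described with lists of known target genes. Of 8 tested glucocorticoid response genes 2 rose in the 3-line mean, against 0.978% of all genes, with a median log2 change of 0.98 and 3 values below 0. Among the latter FKBP5, a chaperone of the glucocorticoid receptor, had -0.85 ± 0.68 (edgeR adjusted p = 0.5089; chosen after its value was seen). ERRFI1, a feedback inhibitor of the EGF receptor, rose by 1.00 ± 0.20 (edgeR adjusted p = 0.04292), and TSC22D3, the glucocorticoid-induced leucine zipper, rose by 1.83 ± 0.38 (edgeR adjusted p = 0.04906). Both calls were lost without the 3 libraries that stood apart (log2 changes 1.04 and 0.96, adjusted p 0.1671 and 0.2988). They held in 6 of 21 alternative fits for ERRFI1 (adjusted p 5.437e-05 to 0.1992) and in 5 of 21 for TSC22D3 (1.147e-05 to 0.2988). Of 11 metal and oxidant stress genes 0 were called, 10 had a log2 change below 0 and the median was -0.45. The heat shock gene HSPA1A had -1.35 ± 0.42 (edgeR adjusted p = 0.1369). Of 9 copper-handling genes 0 were called, with a median of -0.24, and SLC31A1, the copper importer, had 0.66 ± 0.24 (edgeR adjusted p = 0.1874).

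The wider zinc transporter families were called between lines and not between oxygen conditions. In the 3-line mean 0 of 8 tested SLC30 exporters and 0 of 11 tested SLC39 importers were called by edgeR. The median log2 change was 0.08 for the 7 exporters with counts in every group and 0.24 for the importers, against 0.017 for all tested genes. Of the importers 10 of 11 had a value above 0, and 2 had an unadjusted p under 0.05: SLC39A9 at 0.55 ± 0.22 (edgeR adjusted p = 0.2117) and SLC39A3 at -0.61 ± 0.28 (edgeR adjusted p = 0.2636). Over all 19636 genes 3723 passed that level and 10019 had a value above 0. The exporter with the smallest p was SLC30A4, which moves zinc into vesicles, at 0.52 ± 0.24 (edgeR adjusted p = 0.2679).

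Between lines, several importers were higher in A2058, the line with little MT2A. The genes named here were chosen after their values were seen. Of 11 importers 5 were called higher than in A375, against 13.4% of all genes, and 6 higher than in SKMEL-5, against 12.9%, and none was called lower in either. The median log2 difference was 1.01 and 1.03, against -0.06 and -0.05 for all tested genes. SLC39A6 ran from 176.8 to 421.1 CPM in A2058, from 97.4 to 130.4 CPM in A375 and from 61.7 to 98.5 CPM in SKMEL-5. Its log2 difference was 1.45 ± 0.29 from A375 (edgeR adjusted p = 0.003861) and 1.87 ± 0.30 from SKMEL-5 (edgeR adjusted p = 0.0008755). SLC39A7 ran from 223.5 to 364.4 CPM in A2058 and from 81.1 to 190.6 CPM in the 8 other libraries.

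SLC39A11, an importer found on internal membranes, had the largest difference of the importers, at 2.54 ± 0.38 from A375 (edgeR adjusted p = 0.0005768) and 2.10 ± 0.37 from SKMEL-5. SLC39A8, which carries zinc and manganese, and SLC39A4, the importer of dietary zinc, were also called in both comparisons. SLC39A3 was called against SKMEL-5 (log2 difference 1.03 ± 0.34, edgeR adjusted p = 0.0442). The count of importers called fell to 2 without A375 normoxia 1 and to 3 without A2058 hypoxia 2 in the first comparison, and to 3 without SKMEL-5 normoxia 1 in the second. SLC39A6 and SLC39A11 were called in all 19 alternative fits of each comparison. Against A375, SLC39A7 and SLC39A8 were called in 17 of 19 and SLC39A4 in 13. Against SKMEL-5, SLC39A7 was called in 19 of 19, SLC39A8 in 13, SLC39A3 in 10 and SLC39A4 in 9.

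Among the genes of the SLC30 family, SLC30A10, which exports manganese, had 7 counts in SKMEL-5, 0 in A375 and 306 in A2058. It was called higher in A2058 in both comparisons. SLC30A3, which loads zinc into synaptic vesicles, had 717 counts in SKMEL-5, 673 in A375 and 24 in A2058, and was called lower in both. SLC30A4 was called lower than in SKMEL-5 by -0.89 ± 0.30 on the log2 scale (edgeR adjusted p = 0.04549), a call that held in 7 of 19 alternative fits (adjusted p 0.003895 to 0.1981). SLC30A1 itself was called in neither comparison.

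**Figure D5:**
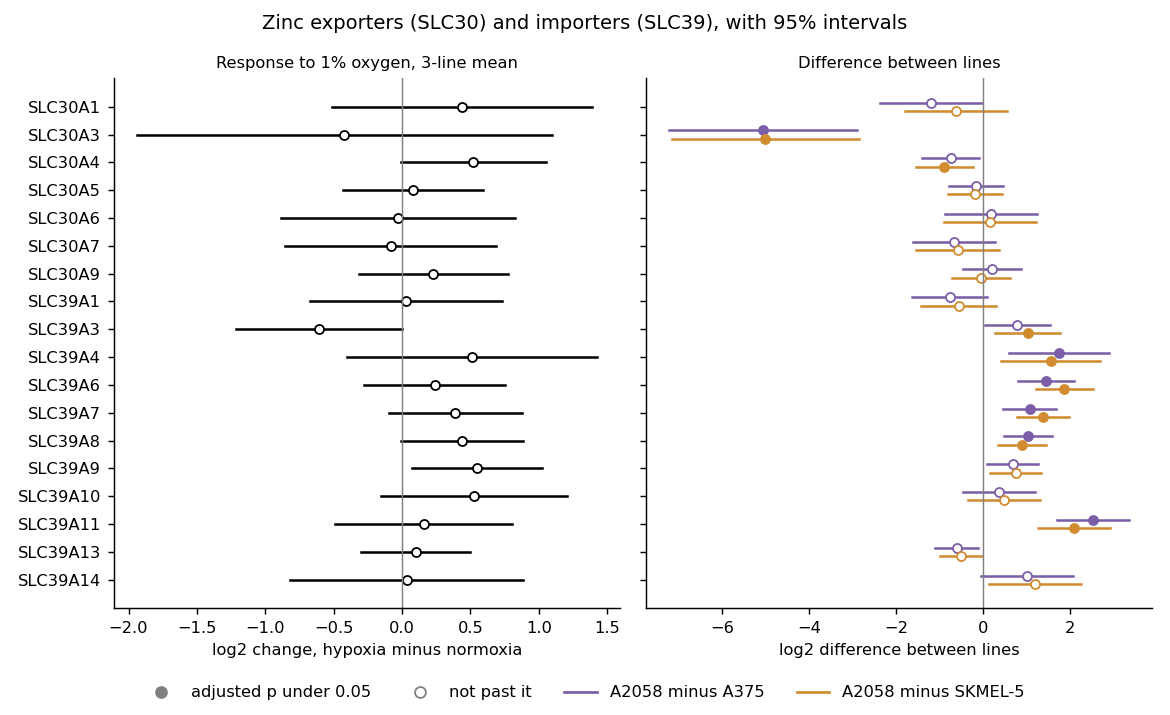
Log2 change with hypoxia in the 3-line mean (left) and log2 difference of A2058 from A375 and from SKMEL-5 (right) for the zinc exporters (SLC30) and importers (SLC39) tested, with 95% intervals from edgeR; filled points have an adjusted p under 0.05, and SLC30A10 is left out because A375 had 0 counts. No point is filled on the left, and SLC39A6, SLC39A7, SLC39A8, SLC39A11 and SLC39A4 are filled to the right of 0 in both line comparisons.

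The genes whose line-centred log2 CPM most resembled MT2A, SLC30A1 and SLC39A10 were ranked by Pearson r over 12 libraries among 11813 genes, as a description of libraries that share depth and replicate effects. For MT2A the first 5 were C4orf46 (0.968), MSRA, a methionine sulfoxide reductase (0.967), PCLAF, a factor that binds PCNA (0.957), RAD1, part of a DNA damage checkpoint clamp (0.953), and C3orf14 (0.946). For SLC30A1 they were FOSL1, a subunit of the AP-1 transcription factor (0.958), PEA15 (0.948), CRCP (0.929), KLHL21 (0.925) and RPF1 (0.921). For SLC39A10 they were CHD6, a chromatin remodeller (0.970), SPG11 (0.959), ALG10B (0.951), ARHGAP35 (0.950) and CD109, a surface protein (0.949). Single libraries can weigh heavily in these r values. MT2A read 268.6 CPM in SKMEL-5 hypoxia 1, against 580.2 to 698.0 CPM in the other SKMEL-5 libraries. SLC30A1 read 156.5 CPM in A375 hypoxia 1, against 22.5 to 39.3 CPM in the other A375 libraries. The rankings without these libraries were not computed.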

How the data were processed

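The deposited table, made by the authors, holds raw, unnormalized counts for each gene in 12 libraries. Per the labels' protocols, an RNeasy kit gave the RNA and a NuGen Universal Plus kit the mRNA libraries. Reads were handled with bcl2fastq 2.20, then Trim Galore 0.6.1 and STAR 2.5.0a on GRCh38, per the submitters' processing notes. The sources used here give no counting tool, strand setting, annotation release or read length, so reads of overlapping genes or near-identical copies may have gone to either. Symbols came from a table of gene names, positions from GENCODE 29 and promoters from RefSeq (GRCh38.p14).

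The test was edgeR 4.0.16's quasi-likelihood test in R 4.3.3. After filterByExpr (minimum count 10, minimum total 15) 19636 genes were left, TMM scaled the libraries, and the model had 1 mean for each of 6 groups, with 6 residual degrees of freedom. Contrasts were hypoxia minus normoxia in each line, their mean, their equality, and differences between lines over both conditions. Benjamini-Hochberg adjustment ran over all tested genes, with calls at an adjusted p under 0.05; adjusted p-values come from edgeR where no tool is named. An SE is the absolute log2 change divided by the root of its F statistic. The fit was tested on simulated counts. Alternatives used DESeq2 1.42.0, limma-voom 3.58.1, other filters, a replicate block, left-out libraries and pairs of lines. Those for single lines, line differences and genes or lists beyond the 10 were chosen after seeing the data. The 10 genes and the gene lists were chosen with earlier results of these data known. Beyond the 10, genes are named by the lowest p in their list, by likeness to a member, or, between lines, after their values were seen. Nothing in the labels says how separate the duplicate cultures were, so p-values measure the spread between these libraries, part of which may be technical.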

Additional observations from a re-analysis of the deposited data

How the results depend on the processing

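No alternative fit called a hypoxia change of the 5 tested genes, and MT2A stayed lower in A2058 in every one. Other genes were less settled. Between A2058 and A375, 1 of the 5 was called, against 2 with DESeq2 (MT2A and MTF1) and 3 without the low-count filter (also SLC30A1); leaving out 1 library gave 1 to 3 there and 1 to 2 between A2058 and SKMEL-5, the highest without A2058 normoxia 2. Zinc importers called then ran from 2 to 6 and from 3 to 7.

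Some uncalled changes turned sign. Without the 3 libraries that stood apart, the 3-line mean was 0.02 for MT2A and -0.10 for SLC30A1, SLC30A1 in SKMEL-5 was -0.30, SLC39A10 in A375 was 0.24, and A2058 minus A375 was 0.04 for MT1X and -0.02 for SLC39A10. With A2058 and A375 only, the mean of MT2A was 0.03; with A2058 and SKMEL-5 only, MT1X was -0.14 and SLC30A1 -0.17. MT2A in A2058 was -0.0072 with DESeq2 or its size factors, -0.0034 with limma-voom, -0.02 under either other filter and -0.0026 with the replicate block. Leaving out 1 library, the 3-line mean ran from -0.32 to 0.13 for MTF1, -0.01 to 0.93 for SLC30A1 and -0.24 to 1.63 for MT2P1. In A2058 it ran from -0.18 to 0.19 for MT2A, -0.49 to 0.92 for MTF1 and -1.21 to 1.02 for SLC30A1. In A375 it ran from -0.09 to 0.20 for MT2A and -0.90 to 0.24 for SLC39A10. In SKMEL-5 it ran from -0.24 to 0.90 for MT1X, -0.67 to 0.33 for MTF1, -0.30 to 0.67 for SLC30A1 and -0.11 to 1.11 for SLC39A10. A375 minus SKMEL-5 ran from -0.13 to 0.91 for SLC30A1 and -0.23 to 0.43 for SLC39A10. The cause was not tested.

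Deviations of same-numbered libraries had correlations of 0.2551 in SKMEL-5, -0.304 in A2058 and 0.2342 in A375. Their signs went with which hypoxic library stood apart (hypoxia 1 in SKMEL-5 and A375, hypoxia 2 in A2058). They therefore cannot decide whether same-numbered libraries were paired. The replicate block changed no call of the 5 genes. Over all genes the 3-line mean gave 220 calls, 91 with the block, 1543 with DESeq2, 1855 without the filter, 30 without the 3 libraries and 15 to 1120 without 1 library. Depth limits the 5 untested metallothioneins, at no more than 7 counts in a library.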
